A study of Mus musculus with 12 samples.

Results

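The IFI200 genes (also called PYHIN or HIN-200 genes) encode interferon-inducible proteins, most of which bind DNA through a HIN domain and bind partner proteins through a pyrin domain. Sensors of this kind can recognise DNA that is out of place in the cytosol or the nucleus. *Aim2* (absent in melanoma 2) encodes the cytosolic DNA sensor that recruits ASC, the product of *Pycard*, to activate caspase-1 in an inflammasome, and *Ifi204* encodes a protein that is often set beside human IFI16 and has been placed upstream of STING. In macrophages and dendritic cells (DCs), most of these genes are classical targets of type I interferon, which acts through its receptor, the kinases JAK1 and TYK2, and transcription factors that bind interferon-stimulated response elements.

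The genes described here are the 8 rows of the count table that carry the symbols *Ifi203*, *Ifi204*, *Ifi205*, *Ifi207*, *Ifi209*, *Ifi211*, *Mndal* and *Aim2*, of 55471 genes in the table. All 8 passed the filter on low counts, as did 18228 genes in all. The table also held 6 other genes of the family (*Ifi202b*, *Ifi206*, *Ifi208*, *Ifi213*, *Ifi214* and the pseudogene *Ifi203-ps*), which are given only for context.

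RNA was measured by RNA-seq in bone marrow-derived DCs, from marrow of adult female C57BL/6 mice cultured with GM-CSF, a growth factor for granulocytes and macrophages that also yields DCs. The marrow was transduced with a retrovirus that carried a short hairpin RNA (shRNA) either against firefly luciferase (shControl) or against *Ppargc1b* (shPpargc1b), which encodes PGC-1β, a co-activator of transcription. A human CD8 reporter in the vector served to sort the cells that carried the hairpin, and both kinds of cell were then left unstimulated or given interferon-β (IFN-β) for 6 h. This gave 4 groups of 3 libraries, 12 in all: shControl unstimulated, shPpargc1b unstimulated, shControl IFN-β and shPpargc1b IFN-β. All groups therefore share GM-CSF culture, transduction and sorting, and the shRNA lowers its target without removing it. Nothing in the labels says that the replicates came from separate mice or cultures, so p-values measure only the spread between these libraries, which may be technical.

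The libraries held 49919648 to 77726101 counts each. Levels are given as CPM (counts per 1000000 counts of a library in the genes tested) after TMM scaling, which uses a trimmed mean of log ratios between libraries, with the SD over 3 libraries. Differences are log2 fold changes with their SE from a model fitted to all 12 libraries in edgeR, and adjusted p-values are Benjamini-Hochberg values from its quasi-likelihood test over the 18228 genes, with a threshold of 0.05. *Ppargc1b* itself was at 34.5 ± 1.94 CPM in shControl and 19.4 ± 0.851 CPM in shPpargc1b unstimulated libraries, a log2 fold change of -0.83 ± 0.10 (adjusted p = 3.2e-05). With IFN-β it was at 27.8 ± 3.93 and 18.7 ± 2.83 CPM, a log2 fold change of -0.57 ± 0.11 (adjusted p = 9.5e-04). Markers fixed for other cell types that such a culture can hold were low for B cells (5 genes, summed level 0.491 to 1.2 CPM over the libraries), T or NK cells (6 genes, 0.0923 to 0.483 CPM) and erythroid cells (6 genes, 0.0146 to 0.147 CPM). Dendritic-like markers (10 genes) summed to 2723 to 3905 CPM and macrophage-like markers (11 genes) to 8203 to 13668 CPM, so both kinds of marker were abundant.

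The family lies in 1 block of chromosome 1 (GENCODE M21, GRCm38), chr1:173350879-174031810, which is 680.9 kb long. The block holds 21 annotated genes, 13 of them protein coding, and 14 are the family genes counted above. *Aim2* lies at one end (chr1:173350879-173466040, plus strand) and *Ifi205* at the other (chr1:174011998-174031810, minus strand). Between them lie *Ifi209* (173630917 to 173647928, plus strand) and, all on the minus strand, *Ifi207* (173723427 to 173741747), *Ifi204* (173747293 to 173766943), *Mndal* (173849126 to 173942491), *Ifi211* (173896345 to 173913046) and *Ifi203* (173920407 to 173942672). The annotated span of *Mndal* takes in *Ifi211* and most of *Ifi203*. Its exons overlap those of *Ifi203* and of the pseudogene *Gm38050* on the same strand over 155 of 3628 bases (4.27%), and only 37 of the 6706 exon bases of *Ifi203* (0.552%) lie in an exon of *Mndal*. The family arose by duplication, so copies share sequence, and only uniquely mapped reads were counted. Of all 100-base stretches in annotated transcripts of *Ifi211*, 43.1% occurred in that gene alone, and 37.3% were shared with *Ifi205*. The value was 83.1% for *Ifi209*, which shares most with *Ifi214*, 85.0% for *Ifi205*, 89.3% for *Ifi204*, 93.6% for *Mndal*, 97.2% for *Ifi203*, 99.2% for *Ifi207* and 100% for *Aim2*. The level of *Ifi211*, and to a lesser degree those of *Ifi209* and *Ifi205*, is therefore uncertain.

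Start-site sequences were taken from RefSeq (GRCm38) for 7 of the 8 genes, in windows that run from 250 bases before a start to 50 after it. *Ifi203* and *Mndal* had 2 windows each, and *Ifi204* had none. The windows were searched on both strands for GAAANNGAAA (TTTCNNTTTC on the other strand), the core of the interferon-stimulated response element, and for TTCNNNGAA, the core of the gamma-activated site; matches of both motifs may overlap. GAAANNGAAA occurred in 3.44% of 32851 windows of all genes and in 6 of 9 windows of the 7 genes. TTCNNNGAA occurred in 8.3% of all windows and in 0 of the 9. The form GAAATCGAAA was rare, with 16 windows of 32851 (0.0487%), of which 7 belong to family genes. It stood in 3 of the 9 windows of the 7 genes, those of *Ifi207* and 1 each of *Ifi203* and *Mndal*. The stretches below, 5′ to 3′ in the direction of transcription, are shown because they hold this form or differ from it at 1 base, and capitals mark those 10 bases, also in *Ifi209*, where they do not match GAAANNGAAA. They lie at chr1:173942503-173942542 for *Ifi203*, chr1:173880199-173880238 for *Mndal*, chr1:173741826-173741865 for *Ifi207*, chr1:173913059-173913098 for *Ifi211*, chr1:174031865-174031904 for *Ifi205* (all minus strand), chr1:173630765-173630804 for *Ifi209* (plus strand) and chr1:173536012-173536051 for its relative *Ifi214* (minus strand).
Ifi203: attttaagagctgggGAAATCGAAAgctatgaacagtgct
Mndal: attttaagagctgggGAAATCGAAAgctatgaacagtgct
Ifi207: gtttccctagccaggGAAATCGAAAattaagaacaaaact
Ifi211: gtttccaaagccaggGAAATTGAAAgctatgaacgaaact
Ifi205: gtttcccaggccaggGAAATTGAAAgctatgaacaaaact
Ifi209: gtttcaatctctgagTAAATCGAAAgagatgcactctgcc
Ifi214: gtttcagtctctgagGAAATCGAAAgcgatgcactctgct

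The capitals begin 35 bases before the start in *Ifi203*, 36 in *Mndal*, 37 in *Ifi211*, 41 in *Ifi207*, 79 in *Ifi209* and 134 in *Ifi205*. Further matches to GAAANNGAAA, on the other strand, begin 23 bases after the start in *Ifi205* and 54 before it in the other window of *Mndal*. Counted from 1 at the first base of GAAATCGAAA, *Ifi211* and *Ifi205* carry C6T, which leaves the motif intact, and *Ifi209* carries G1T, which breaks it. A closely related stretch with the unbroken core stands in front of *Ifi214*, whose 250 bases before the start are 94.8% identical to those of *Ifi209*. For *Ifi203* and *Mndal*, the 250 bases before the start are 93.2% identical between the 2 windows that hold the form, and 56.8% to 59.2% identical in the other 3 pairs of their windows. Those of *Ifi207* and *Ifi211* are 86.4% identical. The *Aim2* window holds neither motif. In the 250 bases before the start, read in the direction of transcription only, the closest 10 bases differ from GAAATCGAAA at 4 positions. This window lies inside the annotated span of *Aim2*, so its other annotated starts were not searched. Whether the motifs bear on the response to IFN-β was not tested. The windows of *Ifi203* (chr1:173942493-173942742, minus strand) and *Mndal* (chr1:173880188-173880437, minus strand), the pair of genes that were lower in the knockdown both with and without IFN-β below, and of *Aim2* (chr1:173420354-173420603, plus strand), which responded least to IFN-β, read as follows, with matches to GAAANNGAAA in capitals.
Ifi203: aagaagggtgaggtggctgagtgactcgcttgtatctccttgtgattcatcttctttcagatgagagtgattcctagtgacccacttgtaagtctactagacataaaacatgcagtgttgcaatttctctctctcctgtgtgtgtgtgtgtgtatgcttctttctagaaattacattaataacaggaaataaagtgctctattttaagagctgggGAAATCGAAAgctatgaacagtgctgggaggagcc
Mndal: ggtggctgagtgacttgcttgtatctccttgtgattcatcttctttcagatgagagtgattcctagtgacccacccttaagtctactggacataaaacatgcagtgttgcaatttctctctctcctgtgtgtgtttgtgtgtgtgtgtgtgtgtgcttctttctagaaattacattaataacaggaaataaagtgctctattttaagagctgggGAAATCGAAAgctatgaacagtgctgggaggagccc
Aim2: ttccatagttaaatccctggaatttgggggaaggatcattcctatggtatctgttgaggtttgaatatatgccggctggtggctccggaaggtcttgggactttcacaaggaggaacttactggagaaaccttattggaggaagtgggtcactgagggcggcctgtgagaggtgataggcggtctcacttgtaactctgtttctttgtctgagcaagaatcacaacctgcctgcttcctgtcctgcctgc

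Without IFN-β the 8 genes together took 0.0878% of the raw counts in shControl cells (810 ± 89 CPM, n = 3) and 0.0853% in shPpargc1b cells (794 ± 44.6 CPM). Compared per kb of exon, *Ifi207*, whose product has been reported to act with STING, had the highest level in unstimulated shControl cells (54 ± 6.37 CPM per kb), above the range of every other member. *Ifi209* (35.4 ± 4.67), *Ifi204* (30.4 ± 4.02) and *Mndal* (30.1 ± 3.03 CPM per kb) followed, and the libraries of each of them overlapped those of its neighbour in this order. *Aim2* (24.7 ± 1.04) and *Ifi203* (24 ± 2.79 CPM per kb) came next and overlapped each other. *Ifi211* (12.2 ± 2.22) and *Ifi205* (3.08 ± 0.677 CPM per kb) were the lowest and did not overlap their neighbours. With the length of the longest transcript instead of all exons, *Mndal* moved to rank 2 and *Ifi209* to rank 5, while *Ifi207*, *Ifi211* and *Ifi205* stayed at ranks 1, 7 and 8. In shPpargc1b cells *Ifi207* (59.3 ± 3.85) was again the highest and *Ifi205* (3.82 ± 0.179 CPM per kb) the lowest.

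With IFN-β the same 8 genes took 0.6% of the raw counts in shControl cells (6539 ± 299 CPM) and 0.482% in shPpargc1b cells (5166 ± 114 CPM), and the order changed. *Ifi209* (386 ± 21.6), *Ifi204* (330 ± 14.2) and *Mndal* (272 ± 11.2 CPM per kb) were the highest in shControl cells, ahead of *Ifi207* (238 ± 9.78) and *Ifi203* (209 ± 12.4 CPM per kb). *Ifi211* (136 ± 1.75), *Ifi205* (85 ± 7.08) and *Aim2* (55.2 ± 1.72 CPM per kb) were the lowest. No neighbours in this order overlapped between libraries. In shPpargc1b cells the order was the same apart from *Ifi207* (204 ± 5.68) and *Mndal* (198 ± 7.06 CPM per kb), which changed places and overlapped. With the length of the longest transcript *Ifi204* was at rank 1, *Mndal* at rank 2 and *Ifi209* at rank 3 in both kinds of cell, so the order of the leading genes depends on the length used. *Aim2* was the lowest under both lengths.

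**Figure D1:**
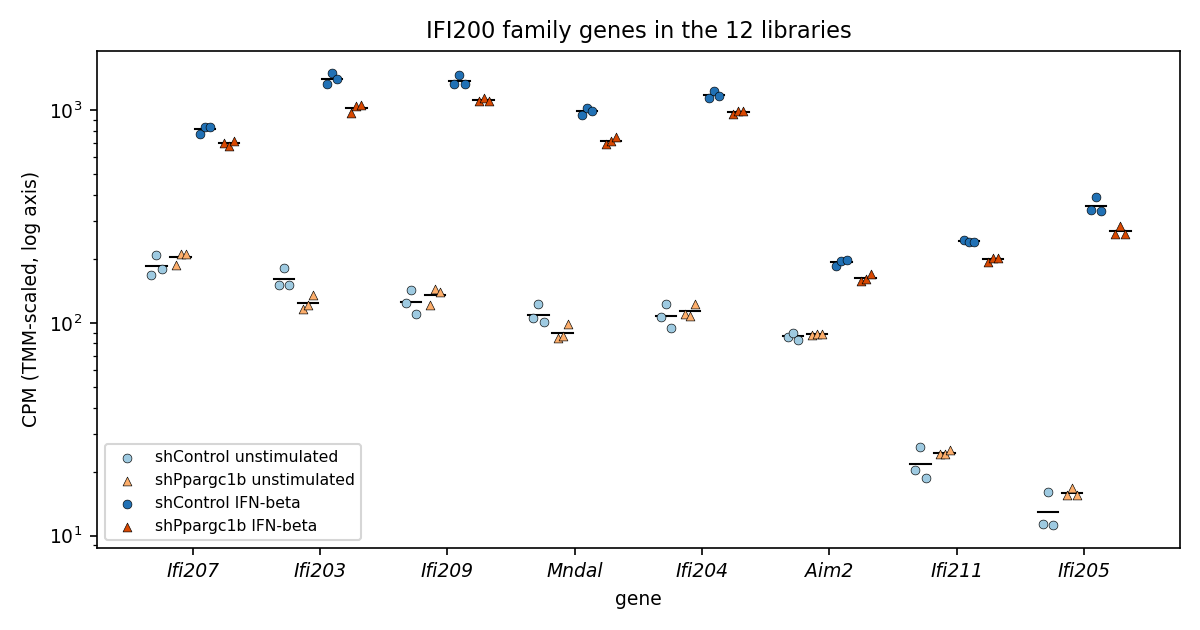
Level of each of the 8 genes in the 12 libraries, as TMM-scaled CPM on a log axis. Each point is 1 library, circles are shControl and triangles shPpargc1b, pale symbols are unstimulated and dark symbols IFN-β, and the black lines are means of 3 libraries. With IFN-β every gene is above its unstimulated range, and the shPpargc1b libraries lie below all shControl libraries for all 8 genes. Without IFN-β this is so for Ifi203 and Mndal alone.

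IFN-β raised all 8 genes in shControl cells, and no library with IFN-β overlapped one without it. Groups that do not overlap in this direction were found for 27.2% of all genes tested. For comparison, 23.7% of all genes tested were called higher and 24.6% lower in this contrast, and the median log2 fold change was 3.31 for the 8 genes and -0.03 for all genes. *Ifi205*, whose product has been linked to ASC expression in macrophages, was at 11.3, 16.1 and 11.2 CPM without IFN-β and at 340, 389 and 336 CPM with it. That is a 27.6-fold difference (95% interval 23.3 to 32.6, log2 4.78 ± 0.11, adjusted p = 1.8e-14), the largest of the 8. *Aim2* was at 86.1, 90.1 and 82.8 CPM without and at 186, 196 and 197 CPM with IFN-β, a 2.24-fold difference (2.1 to 2.38, log2 1.16 ± 0.04, adjusted p = 2.2e-12) and the smallest. The DNA sensor gene thus went from the fifth level per kb of the 8 to the last, although it rose.

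The other members lay between these. *Ifi211* (11.1-fold), *Ifi204* (10.9-fold) and *Ifi209* (10.9-fold) had like responses, with 95% intervals that overlapped from 9.79 to 12.3, and *Mndal* (9.01-fold, 8.09 to 10) and *Ifi203* (8.73-fold, 7.74 to 9.85) came after them. *Ifi207* rose 4.4-fold (3.96 to 4.89). *Ifi207*, the highest at rest, was thus among the genes that rose least, whereas *Ifi209* and *Ifi204*, which followed it at rest, were among those that rose more. The intervals of *Ifi205*, *Ifi207* and *Aim2* did not meet those of any other member.

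In shPpargc1b cells IFN-β raised all 8 genes as well (all genes tested: 21.4% higher, 21.2% lower), again without overlap (24.7% of all genes). The median log2 fold change was 3.03, against -0.02 for all genes. *Ifi205* rose 16.9-fold (14.4 to 19.9), *Ifi204* 8.6-fold, *Ifi203* 8.29-fold, *Ifi209* 8.27-fold, *Ifi211* 8.1-fold, *Mndal* 7.97-fold, *Ifi207* 3.45-fold and *Aim2* 1.84-fold (1.73 to 1.96). The fitted response of each gene was smaller than in shControl cells, a difference that passed its own test for 2 of the 8 (the interaction below). Scaling by library totals alone shifted the median of all genes to a log2 fold change of -0.27 in shControl and -0.22 in shPpargc1b cells, and calls over all genes then split into 14.3% higher and 45.5% lower in shControl cells and 12.8% higher and 41.4% lower in shPpargc1b cells. All 8 members stayed higher in both, with medians of 3.07 and 2.83.

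**Figure D2:**
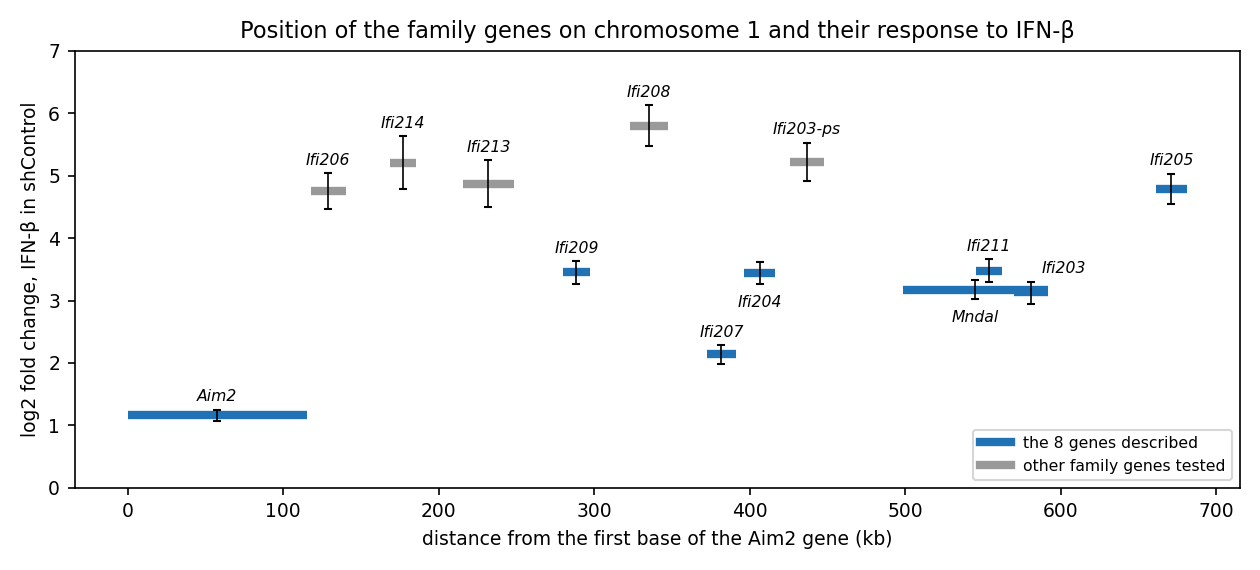
Response to IFN-β in shControl cells (log2 fold change, bars are 95% intervals) of the family genes against their place on chromosome 1, as the distance in kb from the first base of Aim2. Horizontal bars span each annotated gene, in blue for the 8 genes described and in grey for the 5 other family genes tested. Aim2, at one end, has the smallest response (1.16), and Ifi205, at the other, the largest of the 8 (4.78), while the grey genes lie at 4.75 to 5.80.

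The rest of the family gives a scale for these values. *Ifi202b*, whose product lacks the pyrin domain, was left untested, with 0 to 3 counts in each library. *Ifi208* (55.8-fold), *Ifi203-ps* (37.3-fold), *Ifi214* (36.9-fold), *Ifi213* (29.3-fold) and *Ifi206* (27-fold) were all higher with IFN-β in shControl cells, from unstimulated levels of 0.649 (*Ifi214*) to 26 CPM (*Ifi206*). All 14 genes together made up 0.0935% of the raw counts in shControl unstimulated and 0.753% in shControl IFN-β libraries.

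The knockdown was first compared with the control in cells without IFN-β. *Ifi203* and *Mndal*, whose annotated spans overlap, were lower in shPpargc1b cells, and no member was called higher. Of all genes tested, 11.1% were called lower and 12.4% higher in this contrast. *Ifi203* was at 150, 182 and 150 CPM in shControl and at 116, 121 and 135 CPM in shPpargc1b libraries. The groups did not overlap, and the log2 fold change was -0.38 ± 0.08 (adjusted p = 0.00178). *Mndal*, whose human relative MNDA is a nuclear protein of myeloid cells, was at 105, 122 and 101 CPM in shControl and at 85, 86.7 and 98.7 CPM in shPpargc1b libraries. Here too every shPpargc1b library was below every shControl library (log2 fold change -0.28 ± 0.07, adjusted p = 0.00761). Groups that do not overlap in this direction were found for 18.4% of all genes tested.

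The other 6 members had log2 fold changes above 0, from 0.03 (*Aim2*) to 0.31 (*Ifi205*), with groups that overlapped, and did not pass the threshold. For *Aim2* the interval was narrow (0.03, -0.06 to 0.12, adjusted p = 0.657), with 87.4, 89 and 88.3 CPM in shPpargc1b libraries. *Ifi205* was at 15.5, 16.8 and 15.5 CPM in shPpargc1b libraries, against 11.3, 16.1 and 11.2 CPM in shControl (0.31 ± 0.11, adjusted p = 0.0577). Its values therefore overlapped only through shControl replicate 2. That library had the highest value of its group for 8 of 8 members, whereas 32% of all genes tested were highest there. Without it, *Ifi205* (0.51, adjusted p = 2.6e-04), *Ifi211* (0.34, adjusted p = 2.9e-04) and *Ifi207* (0.23, adjusted p = 0.0101) were called higher, *Ifi203* and *Mndal* stayed lower, and 5 members in all passed. Without shControl replicate 3 the log2 fold change of *Ifi204* changed sign, from 0.07 to -0.02, with no call in either.

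In cells given IFN-β the picture differed in count: all 8 members were lower in shPpargc1b than in shControl cells. Of all genes tested, 12.7% were called lower and 11.5% higher. The log2 fold changes ran from -0.46 to -0.22 with a median of -0.29, against -0.01 for all genes, and for all 8 members no shPpargc1b library reached the lowest shControl library, which was the case for 20.7% of all genes. *Mndal* was at 945, 1027 and 985 CPM in shControl and at 695, 715 and 746 CPM in shPpargc1b libraries (-0.46 ± 0.07, adjusted p = 1.4e-04). *Ifi203* was at 1321, 1487 and 1404 CPM in shControl and at 968, 1048 and 1059 CPM in shPpargc1b libraries (-0.45 ± 0.07, adjusted p = 3.7e-04). The pair that was lower at rest thus also had the largest differences here.

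*Ifi205* was at 340, 389 and 336 CPM in shControl and at 262, 285 and 262 CPM in shPpargc1b libraries (-0.40 ± 0.09, adjusted p = 0.00572). *Aim2* was at 186, 196 and 197 CPM in shControl and at 158, 160 and 169 CPM in shPpargc1b libraries (-0.25 ± 0.04, adjusted p = 3.5e-04). The knocked-down cells held 0.84 of the control level of *Aim2* (95% interval 0.79 to 0.893) and 0.729 of that of *Mndal* (0.661 to 0.805). *Ifi209* (-0.30 ± 0.08, adjusted p = 0.0124), *Ifi211* (-0.28 ± 0.08, adjusted p = 0.0138), *Ifi204* (-0.27 ± 0.07, adjusted p = 0.0144) and *Ifi207* (-0.22 ± 0.07, adjusted p = 0.0303) were nearer to the threshold. Leaving out shPpargc1b IFN-β replicate 1 lost the calls of *Ifi204*, *Ifi207* and *Ifi211*, and leaving out shControl IFN-β replicate 2 lost those of *Ifi204*, *Ifi207* and *Ifi209*, which left 5 members in each. Of the other family genes, *Ifi203-ps* (-0.66 ± 0.11) and *Ifi208* (-0.42 ± 0.11) were lower, and *Ifi213* (-0.31), *Ifi214* (-0.27) and *Ifi206* (-0.18) did not pass.

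Levels of bulk RNA cannot tell fewer cells of a type from less RNA per cell. The summed macrophage-like markers were lower in shPpargc1b libraries, at 8294 to 8778 CPM against 12851 to 13509 CPM without IFN-β and at 8203 to 9193 CPM against 12798 to 13668 CPM with it, and no marker of the list was at 0. Of its 11 genes, 0 were called higher and 4 lower by the knockdown without IFN-β, and 0 higher and 7 lower with it. Of all genes tested, 12.4% were called higher and 11.1% lower without IFN-β, and 11.5% higher and 12.7% lower with it. Dendritic-like markers were higher in shPpargc1b libraries. Of 9 tested genes, 5 were called higher without IFN-β and 6 with it (12.4% and 11.5% of all genes), and 0 were called lower. Without IFN-β, summed markers were also higher in shPpargc1b than in shControl libraries for mast cells or basophils (23 to 27.8 against 9.29 to 18.1 CPM) and plasmacytoid cells (183 to 206 against 118 to 143 CPM), and ranges met for neutrophils (90.1 to 158 against 41.1 to 96.1 CPM). Only 3 of the 6 plasmacytoid markers were tested, and those called higher were *Bst2* and *Tcf4*. IFN-β itself raised the plasmacytoid sum in shControl libraries, to 374 to 406 CPM. With IFN-β the ranges of shPpargc1b and shControl libraries met for plasmacytoid cells (405 to 418 against 374 to 406 CPM) and for mast cells or basophils (18.5 to 27.9 against 12.5 to 20 CPM). The part of these shifts in the levels of the 8 genes was not tested.

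**Figure D3:**
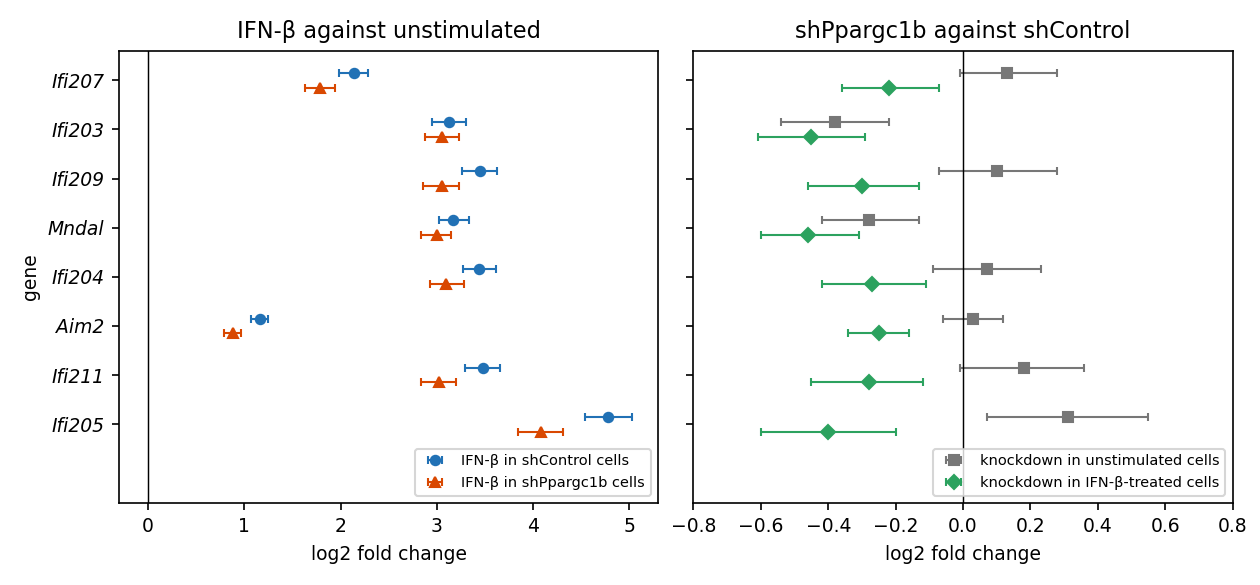
Log2 fold changes of the 8 genes with 95% intervals from the edgeR model. Left, IFN-β against unstimulated cells in shControl (blue circles) and shPpargc1b (orange triangles); right, shPpargc1b against shControl without IFN-β (grey squares) and with it (green diamonds), on a narrower axis. On the right the green intervals lie below 0 for all 8 genes, and the grey intervals do so for Ifi203 and Mndal alone.

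Whether the knockdown effect differed between the treatments was tested by the interaction, which is the knockdown effect with IFN-β minus that without it. All 8 values were below 0, with a median of -0.35 (all genes: -0.00), and those of *Ifi205* (-0.71 ± 0.15, adjusted p = 0.0365) and *Aim2* (-0.28 ± 0.06, adjusted p = 0.0381) passed the threshold. Of all genes tested, 0.73% passed, 0.669% with a value below 0. The threshold was not passed by *Ifi211* (-0.46 ± 0.12, adjusted p = 0.0882), *Ifi209* (-0.40 ± 0.11, adjusted p = 0.136), *Ifi207* (-0.35 ± 0.10, adjusted p = 0.127) and *Ifi204* (-0.34 ± 0.11, adjusted p = 0.191). For *Mndal* (-0.18, interval -0.38 to 0.03) and *Ifi203* (-0.07, interval -0.30 to 0.15), which were lower under both conditions, no difference between the treatments was detectable.

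These calls were close to the threshold and changed when single libraries were left out. Over the 12 fits that each left out 1 library, 9 gave 0 calls among the members. Without shControl IFN-β replicate 1 only *Aim2* passed, and without shPpargc1b IFN-β replicate 2 both genes did. Without shControl unstimulated replicate 2, 6 members passed, which were both genes and *Ifi211*, *Ifi209*, *Ifi207* and *Ifi204*. Scaling by library totals alone gave 0 calls, DESeq2 gave 6, no filter on low counts gave 6, and a block for runs of library codes gave 5. The adjusted p ranged from 5.2e-17 to 0.138 for *Ifi205* and from 0.00138 to 0.156 for *Aim2*, while their values stayed between -0.89 and -0.59 and between -0.31 and -0.23.

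**Figure D4:**
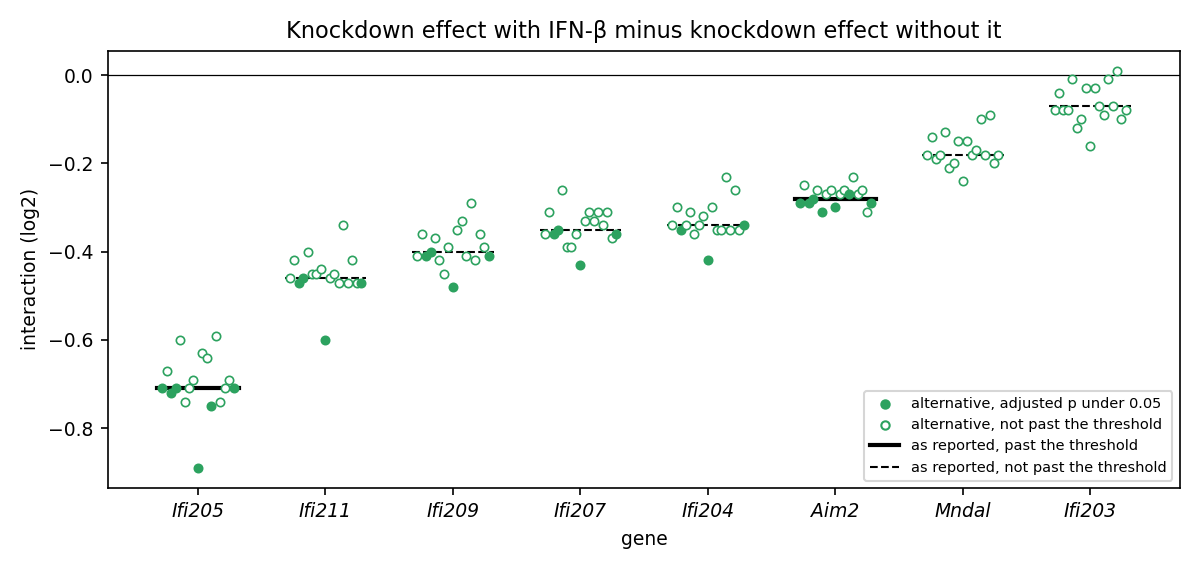
Interaction (log2, knockdown effect with IFN-β minus that without it) of each of the 8 genes, as reported (black line, solid where past the threshold) and under the 17 alternatives (circles, filled where the adjusted p was under 0.05). Values below 0 mean that the gene was lower in shPpargc1b relative to shControl with IFN-β than without it. Ifi205 stays between -0.89 and -0.59, and the circles of Ifi203 lie around 0, from -0.16 to 0.01.

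The profiles over the 4 groups sorted the members further. The distance between 2 genes was the root mean square of the difference between their mean log2 CPM in the 4 groups after each was centred, so that a small value means a like pattern, and it is given as a description over 4 groups. *Ifi204* and *Ifi209* were the closest pair (0.0196), followed by *Ifi209* and *Ifi211* (0.03) and *Ifi203* and *Mndal* (0.0352). *Ifi205* and *Aim2* were the farthest apart (1.71). Among 8739 genes with a mean log2 CPM of at least 3, the closest outside the family were *Batf2* for *Mndal* (0.06) and *Ifi203* (0.0768), *Ms4a6c* for *Ifi209* (0.0745) and *Ifi204* (0.0767), *Irgm1* for *Ifi211* (0.0859), *Trim34a* for *Ifi207* (0.0275), *Mx2* for *Ifi205* (0.121) and *Gm42547* for *Aim2* (0.0144).

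Genes that act with the family were taken from a list of cytosolic DNA sensing and the AIM2 inflammasome, of which 22 were tested. IFN-β called 14 higher and 4 lower in shControl cells (23.7% and 24.6% of all genes), and 13 higher and 6 lower in shPpargc1b cells (21.4% and 21.2% of all genes). The knockdown called 4 higher and 3 lower without IFN-β (median log2 fold change 0.01), where 12.4% of all genes were called higher and 11.1% lower. It called 2 higher and 9 lower with IFN-β (median -0.11), where 11.5% of all genes were called higher and 12.7% lower. *Pycard*, the ASC adaptor that AIM2 binds, was lower in shPpargc1b cells under both conditions (-0.40 ± 0.04 without and -0.32 ± 0.04 with IFN-β), as were *Samhd1*, a nucleotide hydrolase (-0.40 ± 0.05 and -0.44 ± 0.05), and *Ikbke*, a kinase of the interferon pathway (-0.19 ± 0.05 and -0.34 ± 0.05). With IFN-β the inflammasome protease *Casp1* (-0.36 ± 0.04, adjusted p = 3.0e-05), *Casp8* (-0.24 ± 0.04), *Casp4* (-0.22 ± 0.04), the caspase-1 substrate *Il18* (-0.82 ± 0.13), the nucleic acid sensor *Zbp1* (-0.19 ± 0.05) and the STING-pathway kinase *Tbk1* (-0.15 ± 0.04) were lower as well. The DNA sensor *Cgas* (-0.10 ± 0.06, adjusted p = 0.278) and its adaptor *Sting1* (0.03 ± 0.04, adjusted p = 0.685) missed the threshold in these cells, as did the pore-forming *Gsdmd* (-0.13 ± 0.05, adjusted p = 0.0643). Higher in shPpargc1b cells were *Panx1* under both conditions (0.52 ± 0.06 and 0.42 ± 0.06), *Irf7* (0.59 ± 0.10), *Il1b* (0.39 ± 0.08) and *Nlrp3* (0.17 ± 0.06) without IFN-β, and *Dnase2a* (0.19 ± 0.04) with it. The interaction was below 0 and past the threshold for *Irf7* (-0.72 ± 0.14, adjusted p = 0.0244) and *Casp4* (-0.31 ± 0.07, adjusted p = 0.0408). The calls of this list and the next were not repeated under the alternatives.

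All 12 genes of type I interferon signalling described here rose with IFN-β in shControl and shPpargc1b cells (23.7% and 21.4% of all genes). In unstimulated cells the knockdown called 4 of them higher and 0 lower (12.4% and 11.1% of all genes): *Stat2* (0.21 ± 0.05), *Usp18*, an inhibitor of the receptor (0.58 ± 0.10), *Socs3* (0.52 ± 0.10) and *Isg15*, a ubiquitin-like modifier (0.48 ± 0.10). In cells given IFN-β, 1 was called higher and 3 lower (11.5% and 12.7% of all genes): *Socs3* was higher (0.34 ± 0.10), and the receptor kinase *Tyk2* (-0.16 ± 0.04), the transcription factor *Irf1* (-0.34 ± 0.04) and the phosphatase *Ptpn6* (-0.28 ± 0.06) were lower. The receptor chains did not pass in either knockdown contrast (*Ifnar1* 0.05 ± 0.05 and -0.08 ± 0.05, *Ifnar2* 0.09 ± 0.06 and 0.02 ± 0.06, without and with IFN-β). *Stat2* (-0.10 ± 0.05, adjusted p = 0.169) missed the threshold there, and of the 12 only *Isg15* passed in the interaction (-0.62 ± 0.13, adjusted p = 0.0489; 0.73% of all genes).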

How the data were processed

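RNA-seq was measured in 12 libraries of mouse bone marrow-derived DCs. The deposited table holds unnormalized counts as integers per gene. After depletion of ribosomal RNA, indexed libraries were pooled for sequencing. The authors trimmed read pairs (Trim Galore 0.6.0 per the submitters' processing notes) and mapped them to mm10 with STAR (2.7.8a in those notes). They counted uniquely mapped pairs per GENCODE gene, and each library kept its own column of counts. The strand setting was not given in the sources used here. Reads from identical copies were not counted, which can lower genes of this family. All value columns belonged to a sample.

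The test was that of edgeR 4.0.16, run in R 4.3.3 (filterByExpr, minimum count 10 and total 15, TMM, quasi-likelihood F-test, 1 mean per group over all 12 libraries), with steps tested on simulated data. Contrasts share libraries and are not independent. Exact permutation of 3 against 3 libraries cannot give p below 0.1 and was not used. Exon lengths and positions came from GENCODE M21, start-site sequences from RefSeq. Named genes were the 8 members, family genes, and pathway genes past the threshold in a knockdown contrast or the interaction; a few others that did not pass were named after their values were seen. Members and lists were chosen with earlier results of these data known. One gene of the interferon signalling list is not reported here. Alternatives were other size factors, DESeq2 1.42.0, no filter, 6 libraries alone, a block for runs of library codes, and leaving out each library.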

Additional observations from a re-analysis of the deposited data

Results flagged for a closer look

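The knockdown effect on *Ifi205* differed between the treatments by the test of the interaction itself (-0.71 on the log2 scale, adjusted p = 0.0365 in edgeR). Its level was 1.24 times that of shControl cells without IFN-β (95% interval 1.05 to 1.46) and 0.759 times with it (0.661 to 0.872). The same test separated the treatments for *Aim2* (-0.28, adjusted p = 0.0381), at 1.02 times the control level without IFN-β (0.961 to 1.09) and 0.84 times with it (0.79 to 0.893). Both calls were lost in 9 of the 12 fits that left out 1 library.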

How the results depend on the processing

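The rise of all 8 members with IFN-β held in both kinds of cell under every alternative run, 18 for each gene. The knockdown calls of *Ifi203* and *Mndal* held under all 18 alternatives in both knockdown contrasts, as did those of *Ifi205* and *Aim2* with IFN-β. The call of *Ifi207* with IFN-β was lost in 9 of 18, including scaling by library totals alone (adjusted p = 0.052). Members past the threshold numbered 5 for the knockdown without IFN-β when no filter on low counts was used, and 2 to 5 when 1 library was left out. For the knockdown with IFN-β they numbered 5 to 8 when 1 library was left out. For the interaction they numbered 0 with library totals alone, 6 with no filter, 6 with DESeq2, 5 with a block for runs of library codes and 0 to 6 when 1 library was left out. Interaction calls over all genes moved from 133 to 84 with library totals alone, 452 with DESeq2, 525 with no filter, 425 with the block, and between 37 and 231 with 1 library left out. The cause was not tested. Values that changed sign were the knockdown effect on *Ifi204* without IFN-β (-0.02 without shControl unstimulated replicate 3, range -0.02 to 0.18 when 1 library was left out) and the interaction of *Ifi203* (0.01 without shPpargc1b unstimulated replicate 3, range -0.16 to 0.01), neither of them called. Library totals alone moved 21 of 32 levels by more than 1 SD.

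The labels give no replicate numbers, and the numbers used here only name libraries. The library codes fall into 3 runs with 1 library of each group, and the labels do not say what a run shares. Deviations from the group means correlated at 0.0276 to 0.146 within a run and at -0.154 to 0.0565 between runs, and 12 of 12 libraries correlated best with one of their own run, a hint from the data alone. With a block for the runs, *Ifi205* was also called higher by the knockdown without IFN-β (0.32, adjusted p = 0.00283).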
